A study of Mus musculus with 12 samples.

Results

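The genes described here encode the keratins that mark mammary epithelium: Krt8, Krt18, Krt7 and Krt19, found in the luminal layer, and Krt14 and Krt5, found in the basal layer. They were read from a table of H3K27ac, an acetylated form of histone H3 that marks active promoters and enhancers, measured by ChIP-seq in 4T1, a metastatic mouse mammary carcinoma line. Members were the rows that carry the symbol of 1 of these 6 genes, and 3 of the 6 genes had rows. Krt8 had 1 interval, Krt19 had 3 and Krt14 had 5, which gave 9 of the 126464 intervals and 3 of the 22264 symbols. Krt18, Krt7 and Krt5 named no interval. The 6 treatments lasted 48 h. Cells received no inhibitor, etomoxir at 50 µM, or etomoxir with SB204990, also at 50 µM, and each of these backgrounds was run without and with acetate at 5 mM. The background without inhibitor or acetate is the vehicle group. Etomoxir inhibits CPT1, which admits long-chain fatty acids to mitochondria, SB204990 inhibits ATP citrate lyase (ACLY), which makes acetyl-CoA from citrate, and acetate is another source of acetyl-CoA, the acetyl donor of histones. Each treatment had 2 libraries, 12 in all, named set 1 and set 2 here after a suffix in their names that the labels do not explain. Nothing in the labels says that the libraries came from separate cultures, so p-values measure the spread between these libraries, which may be technical.

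Keratins are the intermediate filament proteins of epithelia. A type I keratin (Krt18, Krt19 and Krt14 among these genes) pairs with a type II keratin (Krt8, Krt7 and Krt5) to build the filament, which is anchored at desmosomes and hemidesmosomes. Keratin 8 and keratin 18 form the main filament of simple epithelia, keratin 7 and keratin 19 add to it in luminal and ductal cells, and keratin 14 and keratin 5 form the filament of basal and myoepithelial cells. In the mouse genome the type I genes lie in a cluster on chromosome 11 and the type II genes in a cluster on chromosome 15, and Krt18 is the type I gene that lies beside Krt8 at the end of the type II cluster.

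The values are reads in an interval multiplied by a factor for the library that was derived from human chromatin added as a spike-in, and are called scaled reads below. The libraries held 7179165 to 16676442 reads in intervals, and factors ran from 0.398 to 1. The reads behind a single value ran from 2859 to 7673 for Krt8, from 622 to 1499 for Krt19 and from 357 to 936 for Krt14. The set 2 library of etomoxir + SB204990 stood apart, with the fewest reads and 2.77% of them in the quartile of intervals with the lowest signal, against 0.990% to 1.41% in the other 11 libraries. Fold changes of the keratin genes that use it are given with and without it. In bulk chromatin, fewer cells with the mark and less of the mark in each cell cannot be told apart.

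Krt8 and Krt18 lay under the same broad domain of H3K27ac. The only interval named Krt8 was chr15:101974106-102054693 (mm10), 80588 bp long against a median of 715 bp over all intervals. It ranked in the 99.94 percentile of length and the 99.90 percentile of scaled reads. The authors' annotation called it intergenic, with its centre at -9918 bp from the Krt8 start (negative values are upstream). By the GENCODE M21 annotation it spans the whole of Krt8 (101996698 to 102004482, minus strand) and the whole of Krt18 (102028180 to 102032027, plus strand), so the pairing partners share 1 value and cannot be told apart in it. Krt7 was in a like position. Its gene body (101411043 to 101430313, plus strand) overlapped the interval chr15:101398327-101436405, 38079 bp long, which carries the name of its neighbour Gm671 and also overlaps Krt87. This interval was not a member by name. It was added after the coordinates and values had been seen, and its values stand beside those of the members as the interval over Krt7.

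The main intervals of Krt19 and Krt14 were shorter and annotated to their promoters. Krt19 (chr11:100140810-100148665, minus strand) had a promoter interval at chr11:100139560-100159647, 20088 bp long, which held 84.3% of its scaled reads, and 2 intergenic intervals at -12585 and -18361 bp, the farther of which was chr11:100163942-100170111. Krt14 (chr11:100203162-100207548, minus strand) had a promoter interval at chr11:100203244-100212110, 8867 bp long, which held 93.9% of its scaled reads. The other 4 Krt14 intervals were intergenic and 212 to 594 bp long. These distances run from the GENCODE start of the gene to the centre of the interval, and the promoter intervals were centred at -938 bp for Krt19 and -129 bp for Krt14. The authors' table measures from other annotated starts of these genes and gives -5905 and -1647 bp.

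Krt5, the basal type II keratin that pairs with keratin 14, had no H3K27ac interval. Its gene (chr15:101707070-101712898, minus strand) lay in a stretch of 514895 bp without an interval, chr15:101459211-101974105, bounded by the intervals named Krt81 and Krt8. This gap was longer than 99.8% of the 126427 gaps between neighbouring intervals, whose median was 1957 bp, and it held 22 protein-coding genes, 20 of them keratin genes. The nearest interval began 253688 bp from the Krt5 start site. The interval numbers of the table run without a break across the gap. A gap says that no interval was called there and gives no level, since the table holds values only within called intervals. The start site lay in an interval for 5 of the 6 members, for 1 of 22 other type II keratin genes (Krt80) and for 4 of 25 other type I keratin genes (Krt13, Krt15, Krt16 and Krt17), against 51.8% of 22028 protein-coding genes.

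**Figure D1:**
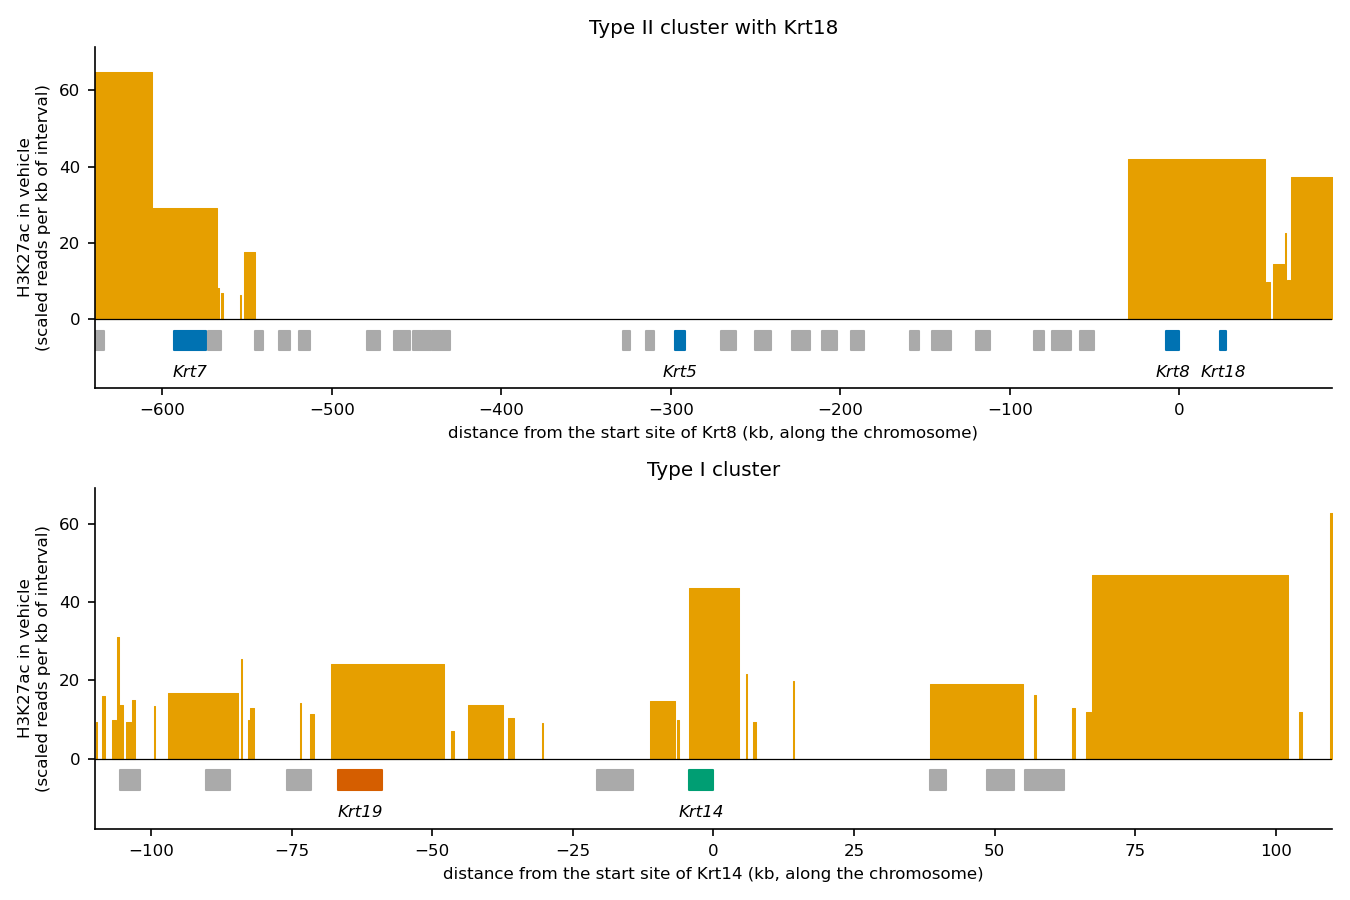
H3K27ac in vehicle over the keratin clusters, in scaled reads per kb of interval (mean of 2 libraries), against distance from the start site of Krt8 (top) or Krt14 (bottom) in kb along the chromosome. Orange blocks are intervals, coloured bars the members and grey bars other keratin genes. Krt8 with Krt18 and Krt7 lie under broad intervals at the ends of the type II cluster, and Krt5 lies in the gap of 514895 bp between them.

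The promoters of the type II cluster are shown because 3 of them lay under broad H3K27ac and the fourth lay in the gap. They are the 250 bases before the start site from RefSeq (GRCm38.p6, the assembly also called mm10), 5′ to 3′ on the strand of the gene. RefSeq sequences were at hand for 5 of the 6 members. Against the start of the principal protein-coding transcript in GENCODE, the entries begin 1 bp inside for Krt7 (1360 bp inside the gene, which has a longer transcript), 36 bp inside for Krt18, 140 bp inside for Krt8 and 7 bp upstream for Krt5. The Krt14 entry begins 1518 bp inside that transcript and is not shown, and Krt19 had no entry. Capitals mark the motifs TATAAA (the TATA box), GGGCGG (the GC box), CCACCC (the CACCC box), TGANTCA (AP-1), GCCNNNGGC (AP-2) and AACCNGTT (Grainyhead-like factors), on either strand. The sequences lie at chr15:102004343-102004592 (Krt8, minus strand), chr15:102027966-102028215 (Krt18, plus strand), chr15:101412153-101412402 (Krt7, plus strand) and chr15:101712906-101713155 (Krt5, minus strand).
Krt8: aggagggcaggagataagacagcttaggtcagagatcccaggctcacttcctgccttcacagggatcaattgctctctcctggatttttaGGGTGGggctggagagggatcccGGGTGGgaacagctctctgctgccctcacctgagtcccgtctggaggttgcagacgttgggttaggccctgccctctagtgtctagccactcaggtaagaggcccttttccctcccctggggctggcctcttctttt
Krt18: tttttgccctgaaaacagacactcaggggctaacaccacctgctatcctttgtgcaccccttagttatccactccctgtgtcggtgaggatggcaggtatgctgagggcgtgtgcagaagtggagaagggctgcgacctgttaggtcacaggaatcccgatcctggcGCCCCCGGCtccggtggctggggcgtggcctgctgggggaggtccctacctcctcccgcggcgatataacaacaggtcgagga
Krt7: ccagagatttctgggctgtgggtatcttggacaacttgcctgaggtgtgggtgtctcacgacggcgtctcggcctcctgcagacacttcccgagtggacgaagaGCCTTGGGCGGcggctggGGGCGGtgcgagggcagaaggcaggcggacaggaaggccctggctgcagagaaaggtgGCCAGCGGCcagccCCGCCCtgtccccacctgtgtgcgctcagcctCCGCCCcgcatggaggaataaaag
Krt5: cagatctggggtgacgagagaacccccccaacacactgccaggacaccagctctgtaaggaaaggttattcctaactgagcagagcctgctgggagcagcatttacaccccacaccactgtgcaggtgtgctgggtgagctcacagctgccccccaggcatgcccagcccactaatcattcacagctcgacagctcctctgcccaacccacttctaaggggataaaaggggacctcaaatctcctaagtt
The Krt7 promoter held 4 matches to GGGCGG, a motif in 35.7% of 32851 promoters of 300 bases (250 before to 50 after the start), and 2 to GCCNNNGGC, a motif in 16.6%. A GCCNNNGGC match overlapped a GGGCGG match there. Krt18 held 1 match to GCCNNNGGC, and Krt8 held 2 upstream matches to CCACCC, a motif in 31.5% of promoters. Krt8 also held 2 matches to TATAAA, a motif in 13.6% of promoters, which crossed or followed the start site and so lie outside the bases shown. Krt5 and Krt18 each held 1 CCACCC after the start. No match to TGANTCA (7.81% of promoters) or AACCNGTT (2.09%) was in these windows, and the loose p53-family pattern (a C and a G with 2 free bases between them, repeated after 6 free bases) was in each of them and in 70.2% of all promoters. CpG pairs numbered 16 in the 250 bases of Krt7 and 12 in those of Krt18, against 3 for Krt8, 2 for Krt5 and a median of 6 over all promoters. A match of letters does not show that a factor binds.

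In vehicle the keratin genes differed in level per length. Krt8 carried 42.0 ± 2.44 scaled reads per kb of interval (SD, n = 2), higher than 95.2% of gene symbols, whose median was 16.4. Krt14 carried 39.7 ± 8.16 per kb, higher than 94.0% of symbols, and Krt19 carried 21.3 ± 2.21 per kb, higher than 66.8%. The Krt8 and Krt14 levels lay within the spread of the Krt14 libraries, and Krt19 lay below both. In the strongest interval alone the order was the other way for the upper pair, with 43.6 per kb for Krt14 and 42.0 for Krt8, and 24.1 for Krt19. Among the strongest intervals of all symbols, Krt14 was higher than 89.8%, Krt8 than 88.5% and Krt19 than 61.5%. The interval over Krt7 carried 29.2 scaled reads per kb. Among 1707 intervals of 20 kb or more the median was 34.95 per kb, so the Krt8 domain was above and the domain over Krt7 below the middle of such domains.

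Epithelial markers carried the mark in vehicle, and the medians of the lists for other cell types were lower per length. All 6 epithelial genes (Epcam, Cdh1, Cldn3, Cldn4, Cldn7 and Esrp1) had intervals, at 22.8 to 57.2 scaled reads per kb in vehicle with a median of 37.1. The list medians were 15.6 for myoepithelial genes (5 of 6 with intervals, Oxtr without), 14.9 for fibroblast genes (6 of 6), 18.4 for leukocyte genes (4 of 6), 17.9 for endothelial genes (5 of 5) and 13.8 for adipocyte genes (3 of 4). Pecam1, an endothelial gene, carried 35.2 per kb. The part of such genes in the keratin results was not tested. Of the basal pair, Krt14 carried the mark without Krt5, and Trp63, the p63 gene of basal cells, carried 15.6 per kb over 33 intervals. The Trp63 intervals summed to 1162 scaled reads in vehicle, against 405 for Krt14.

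Scaled reads at Krt8 were higher in each acetate library than in the library of the same set and inhibitors without acetate. In set 1 they were 3246 in vehicle and 4632 in acetate, and in set 2 they were 3523 and 4341. In etomoxir they were 3574 in set 1 and 3616 in set 2, and in etomoxir + acetate 5744 and 5442. In etomoxir + SB204990 they were 2641 and 2859, and in etomoxir + SB204990 + acetate 3762 and 5200. The lowest acetate library, set 1 of etomoxir + SB204990 + acetate, was above the highest library without acetate, set 2 of etomoxir. The groups with and without acetate thus did not overlap under the deposited scaling. How many of all genes had no overlap was not counted, here or for the genes below. With acetate averaged over the backgrounds, 88.2% of all genes were called higher. A comparison of all libraries also crosses the sets, whose factors may not share a scale. The last group had the widest spread, with a mean of 4481 ± 1017 (SD, n = 2).

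Krt19, the luminal type I keratin, was also higher with acetate. Scaled reads were 530 in vehicle and 905 in acetate in set 1, and 613 and 861 in set 2. They were 663 and 569 in etomoxir, in set 1 and set 2, and 1252 and 1178 in etomoxir + acetate. They were 453 and 622 in etomoxir + SB204990, and 822 and 1041 in etomoxir + SB204990 + acetate. Every acetate library was above every library without acetate.

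Krt14, the basal member, moved in the same direction. Scaled reads were 346 in vehicle and 565 in acetate in set 1, and 463 and 569 in set 2. They were 407 and 385 in etomoxir, in set 1 and set 2, and 727 and 718 in etomoxir + acetate. They were 270.0 and 357 in etomoxir + SB204990, and 500.0 and 604 in etomoxir + SB204990 + acetate. Here too the groups did not overlap, and the 2 libraries of acetate (567 ± 2.53, SD, n = 2) and of etomoxir + acetate (723 ± 6.30) were close to each other.

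The interval over Krt7 was likewise higher with acetate. It held 1063 scaled reads in vehicle and 1646 in acetate in set 1, and 1158 and 1520 in set 2. It held 1230 and 1134 in etomoxir, in set 1 and set 2, and 2171 and 1987 in etomoxir + acetate. It held 819 and 867 in etomoxir + SB204990, and 1332 and 1715 in etomoxir + SB204990 + acetate. The highest value was in etomoxir + acetate and the lowest in etomoxir + SB204990, as in the means of the 3 genes.

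**Figure D2:**
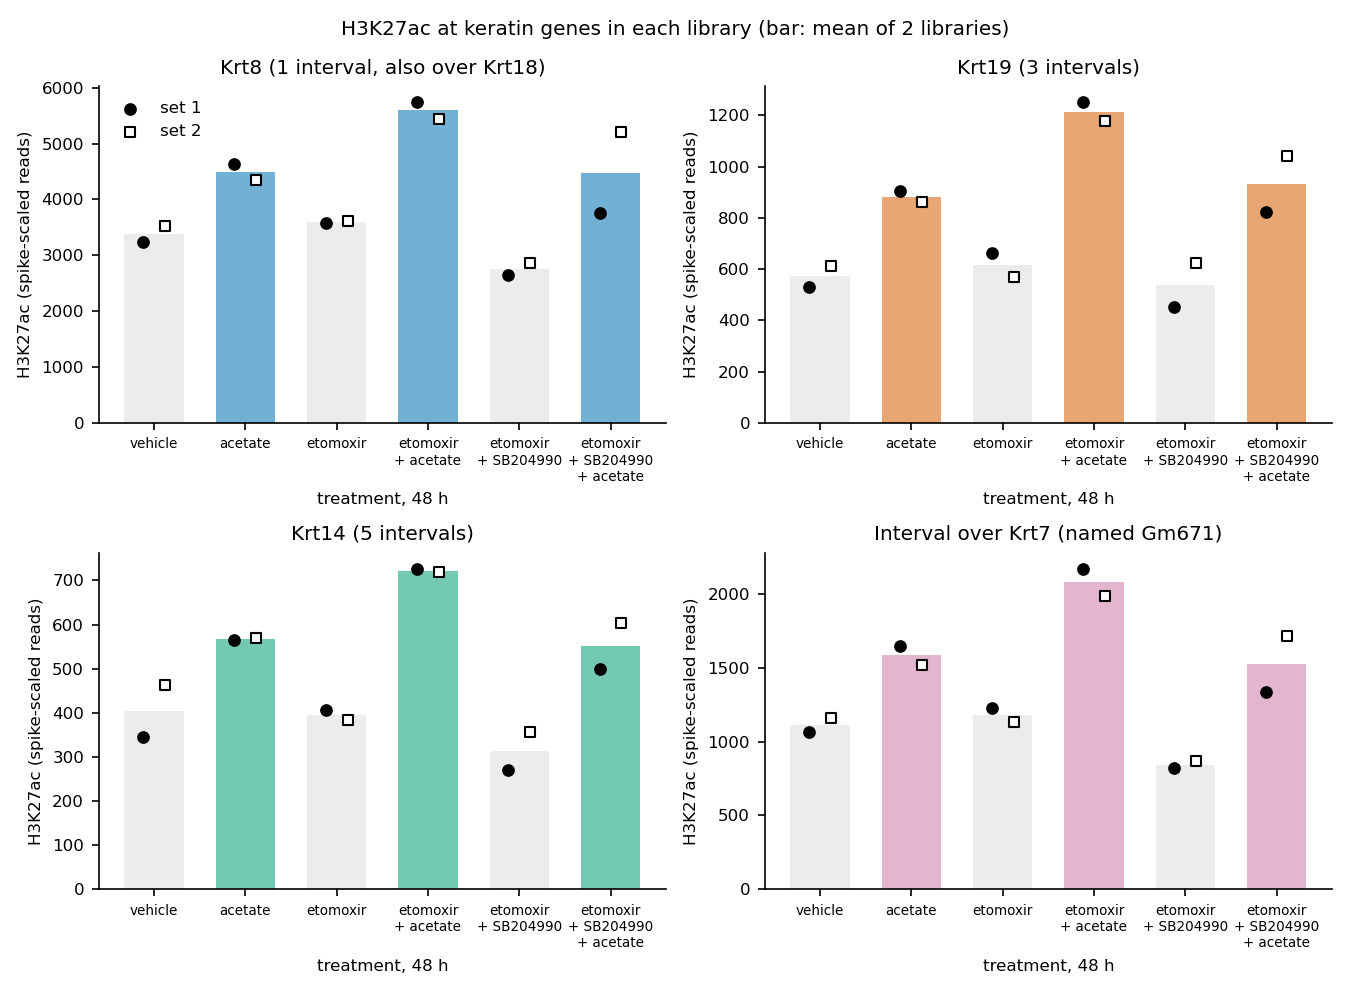
H3K27ac (scaled reads) at Krt8, Krt19, Krt14 and the interval over Krt7 in each treatment. Bars are means of 2 libraries, coloured where acetate was given, circles set 1 and squares set 2. Every acetate library is above every library without acetate in each panel, under the deposited spike-in scaling. How many of all genes show this was not counted.

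Averaged over the 3 backgrounds, acetate raised H3K27ac at all 3 keratin genes with rows, against a background in which 88.2% of 19458 tested genes were called higher. Krt8 rose by a log2 fold change of 0.58 ± 0.10 (SE; limma, adjusted p = 3.5e-05), Krt19 by 0.80 ± 0.11 (limma, adjusted p = 1.4e-05) and Krt14 by 0.73 ± 0.12 (limma, adjusted p = 2.1e-05). These are 1.49-, 1.75- and 1.66-fold. Within a set, libraries were higher with acetate in 6 of 6 comparisons for each gene, by 1.23- to 1.82-fold for Krt8, 1.40- to 2.07-fold for Krt19 and 1.23- to 1.87-fold for Krt14. The median over all tested genes was 0.63 on the log2 scale, so relative to it Krt8 lay 0.05 below, Krt19 0.17 above and Krt14 0.10 above. Krt8 ranked in the 32.7 percentile of all genes, Krt19 in the 90.9 and Krt14 in the 78.7. The calls rest on the scaling of the libraries. With the libraries scaled to the median of ratios, the median over all genes was -0.01, Krt8 turned to -0.07, Krt19 was 0.16 and Krt14 0.09, and none was called (limma, adjusted p = 0.999 for each). With the share of each library's reads in place of its reads, still multiplied by the spike-in factor, Krt8 was 0.37, Krt19 0.60 and Krt14 0.53. None of the 3 was then called (limma, adjusted p = 0.395 for each), nor was any other gene, with 612 higher at an unadjusted p under 0.05. Without the set 2 library of etomoxir + SB204990 the values were 0.60, 0.88 and 0.80, and all 3 genes were called, as were 98.5% of all genes.

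**Figure D3:**
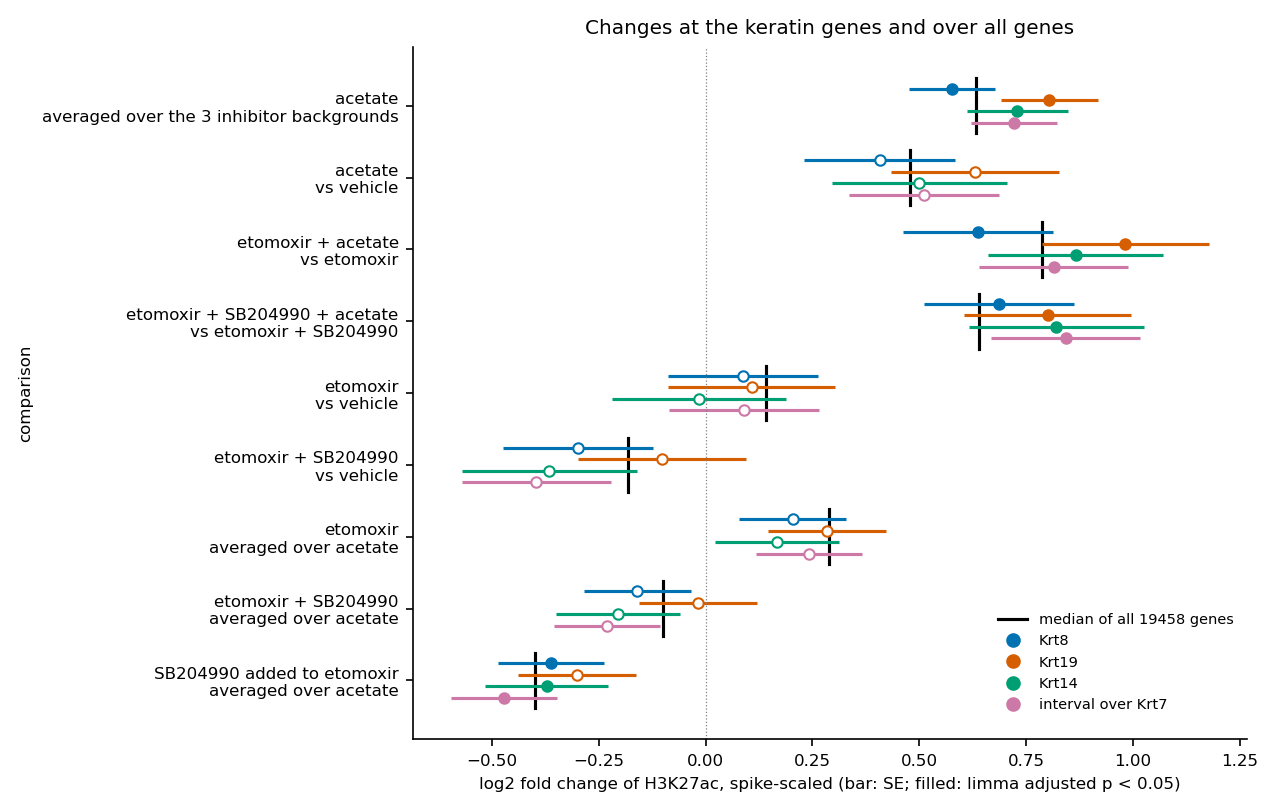
Log2 fold changes of H3K27ac (x axis, spike-scaled) at the keratin genes and the interval over Krt7 for 9 comparisons, with SE bars. Filled points have a limma adjusted p under 0.05, and black bars mark the median of all 19458 genes. With acetate averaged over the backgrounds, Krt19 (0.80) lies above the median of 0.63 and Krt8 (0.58) below it. Krt8 turns to -0.07 under median-of-ratios scaling.

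The same comparison was made for each interval, where 77.2% of 63903 tested intervals were called higher and the median was 0.64. Of the 9 keratin intervals 5 passed the filter on low values (a mean of at least 10 scaled reads over the 12 libraries). A Krt14 interval of 594 bp, at -7322 bp, passed only through the acetate libraries, so its test is not reported. It held 3.27 to 13.0 scaled reads without acetate and 10.4 to 28.8 with it, and the ranges overlapped. The other 4 were called. The Krt19 promoter interval rose by 0.82 ± 0.11 (SE; limma, adjusted p = 7.1e-12) and the farther upstream Krt19 interval by 0.71 ± 0.15 (limma, adjusted p = 8.7e-06). The Krt14 promoter interval rose by 0.72 ± 0.11 (limma, adjusted p = 3.6e-09). The interval over Krt7 rose by 0.72 ± 0.10 (limma, adjusted p = 8.4e-11), 1.65-fold. Among the 1707 intervals of 20 kb or more the median was 0.65 with quartiles of 0.59 and 0.71. The Krt8 domain was in the 19.6 percentile of these, the interval over Krt7 in the 79.7 and the Krt19 promoter interval in the 96.8.

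Split by background, the spike-scaled keratin values were higher with acetate in each. Under median-of-ratios scaling Krt8 turned to -0.09 for acetate against vehicle and -0.23 for etomoxir + acetate against etomoxir, Krt14 turned to -0.0040 for the latter, and no keratin gene was called in any background. For acetate against vehicle the log2 fold changes were 0.41 ± 0.18 for Krt8, 0.63 ± 0.20 for Krt19 and 0.50 ± 0.20 for Krt14 (SE). None was called (limma, adjusted p = 0.103, 0.101 and 0.101), although all 3 had an unadjusted p under 0.05. In this comparison 0% of genes were called by limma, with 8341 at an unadjusted p under 0.05, and edgeR called 0 with 8382. In a fit on those 4 libraries alone, 61.5% of genes were called higher, and so were all 3 keratin genes (limma, adjusted p = 0.0077 for Krt8, 0.00077 for Krt19 and 0.0055 for Krt14). For etomoxir + acetate against etomoxir the log2 fold changes were 0.64 for Krt8, 0.98 for Krt19 and 0.87 for Krt14, all 3 called, as were 78.2% of genes in that direction. Leaving out the set 1 library of etomoxir + acetate took the Krt8 value to 0.60 and ended its call (limma, adjusted p = 0.055), while the share of genes called fell to 28.8%.

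For etomoxir + SB204990 + acetate against etomoxir + SB204990 the log2 fold changes were 0.69 for Krt8, 0.80 for Krt19 and 0.82 for Krt14 (limma, adjusted p = 0.0069, 0.0065 and 0.0066). Of all genes 57.7% were called higher. Without the set 2 library of etomoxir + SB204990 + acetate the values were 0.45, 0.63 and 0.69 and none was called (limma, adjusted p = 0.091, 0.104 and 0.103), nor was any other gene, with 5993 higher at an unadjusted p under 0.05. In a fit on those 4 libraries alone none was called either (limma, adjusted p = 0.32 for each), again with 0 of all genes, 2009 of them higher at an unadjusted p under 0.05. Without the set 2 library of etomoxir + SB204990 they were 0.74, 1.03 and 1.02 and all 3 were called, as were 91.4% of genes. The difference between backgrounds was tested as an interaction. For etomoxir it was 0.23 ± 0.25 for Krt8, 0.35 ± 0.28 for Krt19 and 0.37 ± 0.29 for Krt14, and for both inhibitors 0.28, 0.17 and 0.32 (with the same SEs). No keratin gene was called for either interaction, nor was any other (0% of genes by limma, with 31 and 11 genes at an unadjusted p under 0.05, and 0 by edgeR, with 38 and 99). The interaction with both inhibitors, without the set 2 library of etomoxir + SB204990, was 0.34 for Krt8, 0.40 for Krt19 and 0.52 for Krt14, none called, nor was any other gene, with 2763 of them higher at an unadjusted p below 0.05. Without the set 1 library it was 0.22, -0.06 and 0.12, none called, while 3.36% of genes were called lower. These comparisons share libraries with each other.

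No keratin gene was called for the inhibitors against vehicle. For etomoxir against vehicle the log2 fold changes were 0.09 for Krt8, 0.11 for Krt19 and -0.02 for Krt14, none called by limma or edgeR, where 0.0154% of genes were called. In set 1 Krt19 was 1.25-fold and Krt14 1.18-fold of vehicle, and in set 2 they were 0.927 and 0.830 of it, so the sets differed in direction. For etomoxir + SB204990 against vehicle the log2 fold changes were -0.30 for Krt8, -0.10 for Krt19 and -0.37 for Krt14, none called, where 0.00514% of genes were called. These values and that share depended on the etomoxir + SB204990 libraries. Without set 2 they were -0.36, -0.33 and -0.57, none called (limma, adjusted p = 0.165, 0.186 and 0.056), with 12.3% of genes called lower. Without set 1 they were -0.24, 0.13 and -0.17, none called, with 5.47% of genes called higher. Krt8 was at 0.814 and 0.811 of vehicle in set 1 and set 2, Krt14 at 0.781 and 0.770, and Krt19 at 0.855 and 1.01. Averaged over the levels of acetate, etomoxir gave 0.20, 0.28 and 0.17 for Krt8, Krt19 and Krt14, none called, where 0.298% of genes were called higher. In a fit on the libraries of that comparison alone Krt8 and Krt19 were called, as were 60.6% of genes. Both inhibitors gave -0.16, -0.02 and -0.21, none called, where 0.0822% of genes were called. Without the set 2 library of etomoxir + SB204990 these were -0.19, -0.13 and -0.31, none called, with 5.02% of genes called lower, and without its set 1 library -0.13, 0.10 and -0.11, none called, with 4.22% of genes called higher. With all 12 libraries no keratin gene had an unadjusted p under 0.05 in these 4 comparisons by limma or by edgeR.

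SB204990 added to etomoxir, averaged over the levels of acetate, lowered H3K27ac at 2 of the 3 keratin genes, against 45.0% of all genes called lower. Krt8 fell by 0.36 on the log2 scale (SE 0.12; limma, adjusted p = 0.030) and Krt14 by 0.37 (SE 0.14; limma, adjusted p = 0.041). Krt19 had a log2 fold change of -0.30 ± 0.14 (limma, adjusted p = 0.071). The median over all genes was -0.40, below all 3 values. Libraries of the same set were lower in 4 of 4 comparisons for Krt8 and Krt14 and in 3 of 4 for Krt19, whose set 2 library without acetate was 1.09-fold of that with etomoxir alone. The interval over Krt7 fell by 0.47 (SE 0.12; limma, adjusted p = 0.0098), where 19.2% of intervals were called lower. This interval call was lost under median-of-ratios scaling, total-sum scaling and read shares times the factor, and without the intensity trend. In each of these, 0 intervals were called lower. The calls at Krt8 and Krt14 ended on leaving out either etomoxir library, either etomoxir + acetate library, the set 1 library of etomoxir + SB204990 or the set 1 library of etomoxir + SB204990 + acetate. The calls over all genes moved with them, to 20.6% lower and 4.21% higher without the set 1 library of etomoxir + SB204990 and to 0 in each of the other 5 cases, with 6695 to 9408 genes lower at an unadjusted p under 0.05. Without the set 2 library of etomoxir + SB204990 all 3 genes were called (-0.39, -0.42 and -0.47 for Krt8, Krt19 and Krt14), as were 85.1% of genes. All 3 were called too without the set 2 library of etomoxir + SB204990 + acetate, with 54.7% of genes. The keratin calls were also lost in a fit on the libraries of the comparison only, where 0 genes were called (9577 lower at an unadjusted p under 0.05), and without the intensity trend, where 1 gene was. Under median-of-ratios and total-sum scaling all 3 values turned to 0.00 to 0.09 and none was called.

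The share of a library's reads that fell on a keratin gene does not use the spike-in factor. For Krt8 it ran from 0.0398% (95% Wilson interval 0.0384% to 0.0413%) in set 2 of etomoxir + SB204990 to 0.0493% (0.0482% to 0.0505%) in set 1 of the same treatment, and shares with acetate (0.0421% to 0.0462%) fell inside those without. Without the former library the shares without acetate began at 0.0446%, and 4 of 6 acetate libraries lay below them. For Krt19 it ran from 0.00724% (0.00680% to 0.00771%) in set 2 of etomoxir to 0.00957% (0.00906% to 0.0101%) in set 1 of etomoxir + SB204990 + acetate. Libraries without acetate reached 0.00866% and those with acetate began at 0.00862%, so the ranges just overlapped. The former was again set 2 of etomoxir + SB204990, without which the highest was 0.00846% and the ranges did not overlap. For Krt14 the range was 0.00490% to 0.00604%, and acetate libraries fell inside it. The share of the interval over Krt7 was 0.0121% to 0.0156% without acetate and 0.0152% to 0.0163% with it, the lowest being set 2 of etomoxir + SB204990, without which the range without acetate began at 0.0144%. Intervals cover counting error only, and PCR copies are not independent reads.

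**Figure D4:**
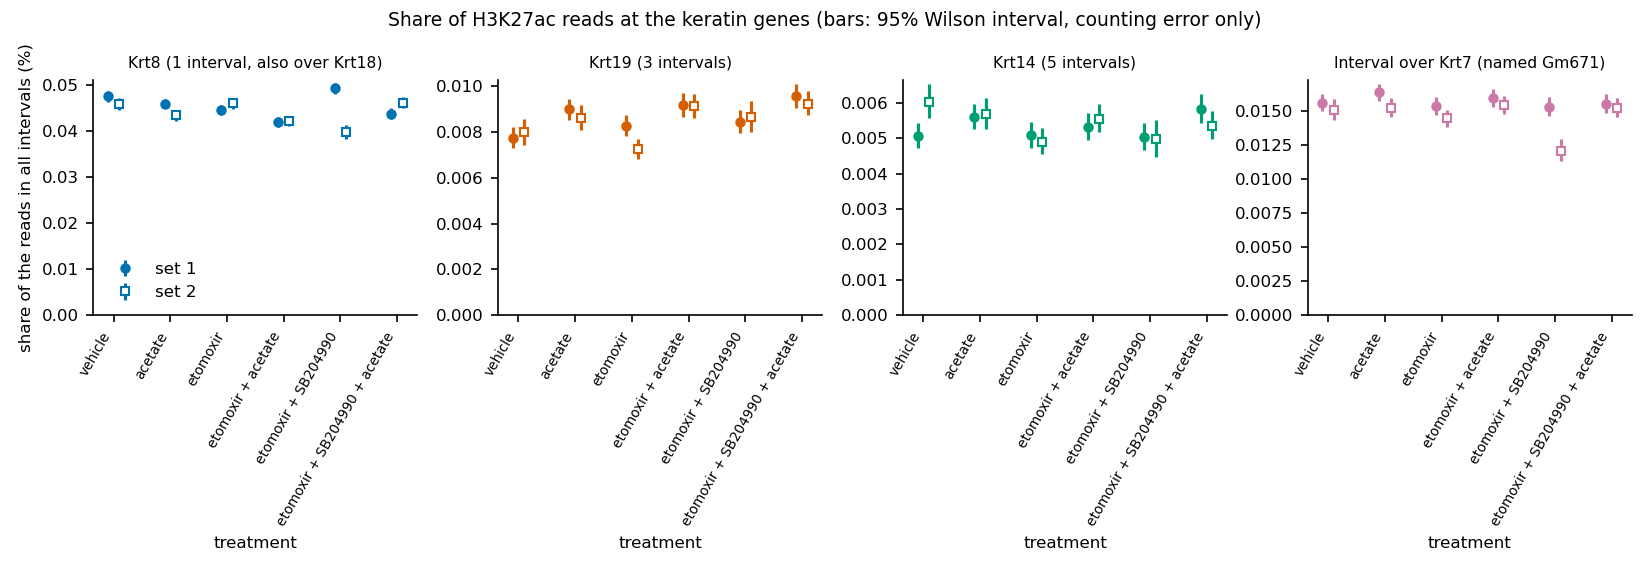
Share of the reads in all intervals (%) that fell on Krt8, Krt19, Krt14 and the interval over Krt7, by treatment, with 95% Wilson intervals. Filled circles are set 1 and open squares set 2. Krt8 is lowest and highest in the 2 libraries of etomoxir + SB204990, at 0.0398% and 0.0493%.

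Within a library the keratin genes can be compared with each other free of any scaling. The ratio of Krt19 to Krt8 scaled reads had a median of 0.173 over the 6 libraries without acetate and of 0.208 over the 6 with it, and was higher with acetate in 5 of 6 comparisons within a set. The exception was set 2 of etomoxir + SB204990, where it fell from 0.218 to 0.200. The ratio of Krt14 to Krt8 had medians of 0.110 and 0.129 and was higher in 4 of 6, and that of Krt14 to Krt19 had medians of 0.634 and 0.609 and was higher in 2 of 6. These ratios were chosen after the values were seen and were not tested.

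**Figure D5:**
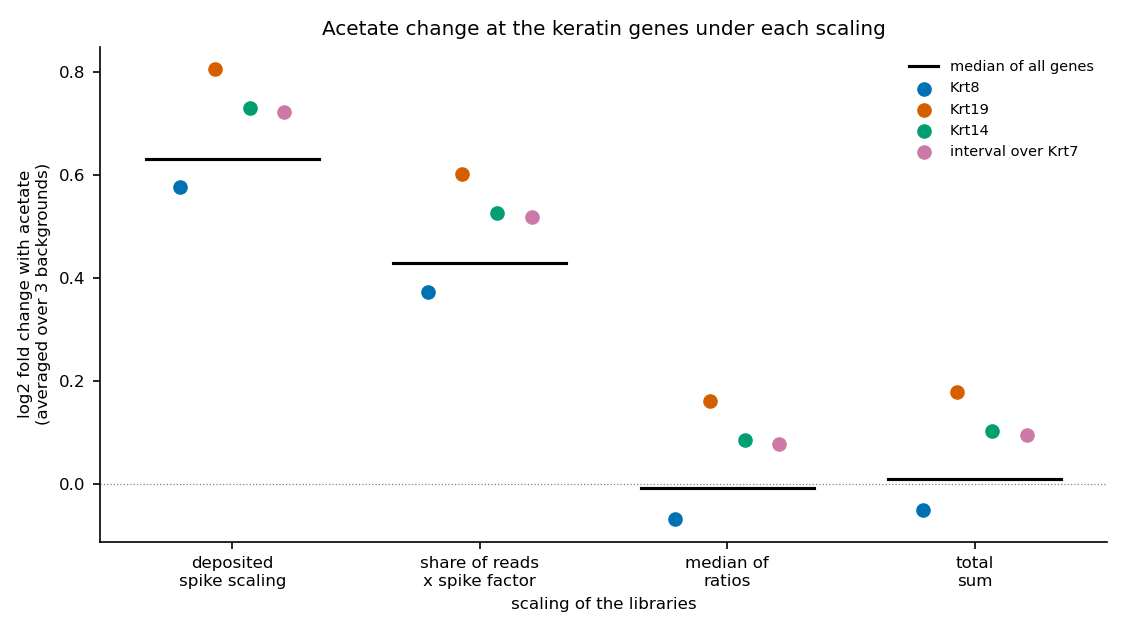
Log2 fold change with acetate averaged over 3 backgrounds (y axis) for the keratin genes and the interval over Krt7 under 4 scalings of the libraries (x axis), with the median of all genes as a black bar. A factor moves all genes of a library alike, so the order Krt19, Krt14, Krt8 is fixed and only the levels move. They run from 0.80, 0.73 and 0.58 with the deposited values to 0.16, 0.09 and -0.07 with the median of ratios.

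Other keratin genes with rows were 14 of 25 type I and 3 of 23 type II genes (Krt85, among the latter, is not in GENCODE M21). With acetate averaged over the backgrounds, 10 of 13 tested type I genes and 3 of 3 tested type II genes were called higher and none lower, with median log2 fold changes of 0.60 and 0.86, beside 88.2% of genes called and a median of 0.63 for all genes. Genes were tested if their mean over all 12 libraries passed the filter, which favours low genes that are high with acetate, in this and the other lists. Krt80, a type II keratin, carried 63.6 scaled reads per kb in vehicle and Krt222, a type I keratin, 68.6, both above Krt8, and they rose by 0.57 and 0.54. These values, and those below, belong to intervals named after the nearest start. The starts of Krt222, Krt81, Krt87, Krt42, Krt39 and Krt23 lay in no interval, and the Krt80 start lay in one named Gm35853. Krt81, a hair keratin whose interval bounds the gap around Krt5, rose by 1.03 ± 0.14 (SE; limma, adjusted p = 1.4e-05) from 118 scaled reads. Krt87, whose gene body touches the interval over Krt7, rose by 0.86 from 11.2. Among type I genes the largest called changes were Krt42 (1.00), Krt16 (0.80), a keratin of activated epidermis, and Krt13 (0.77), and the highest levels after Krt222 were Krt39 (25.3 per kb) and Krt23 (21.5 per kb).

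Other intermediate filament genes had 14 of 15 symbols with rows, and 12 were tested. Lmna passed the filter only through its acetate libraries and is left out, and the other 11 were all called higher with acetate, beside 88.2% of all genes. Vim, which encodes vimentin, the filament of mesenchymal cells, carried 37.8 scaled reads per kb in vehicle, close to Krt14, and rose by 0.42 ± 0.12 (SE; limma, adjusted p = 0.0028). Nes, which encodes nestin, carried 33.8 per kb and rose by 0.86, and Lmnb1, which encodes lamin B1, carried 27.7 per kb and rose by 0.73. Prph, which encodes peripherin, rose by 1.02 from 32.3 scaled reads, the largest called change of the 11. With SB204990 added to etomoxir 4 of the 11 were called lower, beside 45.0% of all genes.

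The proteins that anchor and link keratin filaments had rows for 16 of 16 genes, and all 16 were called higher with acetate, with a median of 0.65, near the 88.2% and 0.63 of all genes. Plec, which encodes plectin, a linker of filaments to hemidesmosomes, carried 43.8 scaled reads per kb in vehicle, Pkp3, a desmosomal plakophilin, 41.4, and Itgb4, the hemidesmosomal integrin, 39.1, so these stood near Krt8 and Krt14. They rose by 0.67, 0.63 and 0.59 on the log2 scale. The largest called changes were Fam83h (0.77), Jup (0.76), which encodes plakoglobin, and Eppk1 (0.72). With SB204990 added to etomoxir 11 of 16 were called lower, with a median of -0.35, beside 45.0% of all genes and their median of -0.40.

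Transcription factors of epithelial and keratin gene control had rows for 17 of 19 genes. Spdef passed the filter only through its acetate libraries and is left out. The other 16 were all called higher with acetate, beside 88.2% of all genes. Gata3, the luminal regulator, carried 74.2 scaled reads per kb in vehicle over 22 intervals, and rose by 0.47 ± 0.12 (SE; limma, adjusted p = 0.00077). Sox9 carried 48.7 per kb and rose by 0.58, and Esr1, the estrogen receptor gene, carried 42.5 and rose by 0.52. The largest called changes were Grhl1 (0.88), Ovol2 (0.83) and Sox10 (0.83), from 21.3, 61.1 and 22.3 scaled reads. With SB204990 added to etomoxir 7 of these 16 were called lower, beside 45.0% of all genes. Of the marker lists, 6 of 6 epithelial, 5 of 5 myoepithelial, 6 of 6 fibroblast, 3 of 4 leukocyte, 4 of 5 endothelial and 2 of 3 adipocyte genes were called higher with acetate, beside 88.2% of all genes. Under median-of-ratios scaling no gene of any list was called higher.

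The genes on other chromosomes most like each keratin gene over the 12 libraries were found with the median-of-ratios values of symbols with a mean of at least 100 scaled reads. For Krt8 they were 2810408A11Rik (Pearson r = 0.998), Ptpa (0.997) and Slc25a24 (0.996), among 12602 symbols. For Krt19 they were Krtcap2 (0.977), Wnt4 (0.967) and 9530034E10Rik (0.964), and for Krt14 Gm19510 (0.985), Gm13257 (0.976) and 5033421B08Rik (0.974), among 12174 symbols. Between the keratin genes r was 0.684 for Krt8 with Krt19, 0.818 for Krt8 with Krt14 and 0.777 for Krt19 with Krt14. The 12 points are libraries that share their treatment for every gene, so these values describe likeness only. They include the set 2 library of etomoxir + SB204990, which stood apart with 2.77% of its reads in the weakest quartile of intervals. Its part in the r values was not tested.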

How the data were processed

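Chromatin of 4T1 cells was, per the labels and published methods, sheared with MNase, spiked with 7.5% human chromatin and precipitated with an antibody against H3K27ac, and the authors ran nf-core/chipseq v1.2.2 on merged GRCh38 and mm10 genomes. The deposited signal is the reads of each interval times a factor for its library, which the authors derived from the percentage of human reads and divided by the highest factor. In every library 100% of values were whole multiples of 1 step within 0.01, which returned the reads. The highest factor, 1, occurred once in set 1 and once in set 2. Whether factors were divided by the highest within each set is not stated, so the sets may not share a scale. How the intervals were called over replicates is not given in the sources used here. A factor moves all intervals of its library alike.

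Values were summed per gene symbol as annotated by the authors (nearest start site). log2(sum + 1) was fitted with limma 3.58.1 (R 4.3.3, intensity trend) on 6 group means over the 12 libraries, for genes or intervals with a mean of at least 10, and p-values were adjusted by Benjamini-Hochberg over all 19458 genes or 63903 intervals. Fold changes are on that log2 scale and understate the change of low genes. The method was tested on simulated data. Gene positions are from GENCODE M21. The members, lists, motifs and tests were chosen with earlier results of these data known. Named from each further list were the 3 genes highest per kb in vehicle and up to 3 called genes with the largest change with acetate. Alternatives were other scalings, pseudocounts of 10, filters, a replicate block, fits without trend or on the libraries of the comparison, edgeR 4.0.16 on the recovered reads, intervals centred within 5000 bases of the annotated start, and leaving out each library. Input libraries were not used here.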

Additional observations from a re-analysis of the deposited data

How the results depend on the processing

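Leaving out each library in turn kept 3 of 3 keratin genes and the 4 reported keratin intervals called for acetate averaged over the backgrounds, while 81.2% to 98.5% of all genes and 37220 to 60579 of 63903 intervals were called higher. It left 2 to 3 called for etomoxir + acetate against etomoxir (28.8% to 57.3% of all genes), 0 to 3 for etomoxir + SB204990 + acetate against etomoxir + SB204990 (0 to 91.4%) and 0 to 3 for SB204990 added to etomoxir (0 to 85.1%). It turned the sign of some uncalled values. Krt19 ran from -0.0032 to 0.22 for etomoxir against vehicle, Krt19 ran from -0.33 to 0.13 for both inhibitors against vehicle, Krt19 ran from -0.13 to 0.10 for both inhibitors averaged over acetate, Krt19 ran from -0.059 to 0.40 for the interaction with both inhibitors and Krt14 ran from -0.23 to 0.19 for etomoxir against vehicle.

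Under median-of-ratios scaling, total-sum scaling and read shares times the factor, 0 keratin genes were called in each of the 4 comparisons with calls, and 0 keratin intervals for averaged acetate. With read shares times the factor the acetate values stayed above 0, at 0.37 for Krt8, 0.60 for Krt19 and 0.53 for Krt14 for averaged acetate and at 0.67, 1.02 and 0.90 for etomoxir + acetate against etomoxir. With the median of ratios, Krt8 turned to -0.068 for averaged acetate, -0.090 for acetate against vehicle, -0.23 for etomoxir + acetate against etomoxir, -0.073 for etomoxir against vehicle, -0.15 for averaged etomoxir, 0.013 for added SB204990 and -0.14 for the etomoxir interaction. Krt19 turned to -0.053 for etomoxir against vehicle, -0.065 for averaged etomoxir, 0.0096 for both inhibitors averaged over acetate, 0.074 for added SB204990 and -0.023 for the etomoxir interaction. Krt14 turned to -0.0040 for etomoxir + acetate against etomoxir, -0.18 for averaged etomoxir, 0.0032 for added SB204990 and -0.0083 for the etomoxir interaction. With total-sum scaling, Krt8 turned to -0.049 for averaged acetate, -0.063 for acetate against vehicle, -0.11 for etomoxir + acetate against etomoxir, -0.044 for etomoxir against vehicle, -0.065 for averaged etomoxir, 0.031 for added SB204990 and -0.043 for the etomoxir interaction. Krt19 turned to -0.024 for etomoxir against vehicle, 0.12 for both inhibitors against vehicle, 0.11 for both inhibitors averaged over acetate, 0.092 for added SB204990 and -0.026 for the interaction with both inhibitors. Krt14 turned to -0.10 for averaged etomoxir and 0.021 for added SB204990. With read shares times the factor, Krt8 turned to -0.13 for etomoxir against vehicle and 0.020 for both inhibitors averaged over acetate. Krt19 turned to -0.11 for etomoxir against vehicle, 0.17 for both inhibitors against vehicle, 0.16 for both inhibitors averaged over acetate and -0.024 for the interaction with both inhibitors. The cause was not tested beyond the scaling itself.

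With only the libraries of a comparison in the fit, 3 genes were called for acetate against vehicle, 2 for etomoxir averaged over acetate (60.6% of all genes), 0 for etomoxir + SB204990 + acetate against etomoxir + SB204990 and 0 for SB204990 added to etomoxir, and without the intensity trend 0 were called for the last. Restricted to intervals within 5000 bases of the start, by the authors' distances from interval centre to annotated start, where only Krt14 has any, 1 gene was called in each of the 4 comparisons with calls, where 52.5% to 91.5% of 12000 genes were called. Assigning intervals by overlap with the gene body, an alternative added after the data were seen, gave 5 members called in the 3 acetate comparisons with calls and 4 for SB204990 added to etomoxir, with Krt8 and Krt18 sharing an interval, where 49311, 36028 and 17483 of 63903 intervals were called higher and 12285 lower. The strongest Krt19 interval carried 24.1 scaled reads per kb in vehicle in place of 21.3 for the gene. No label says that libraries of the same set belong together, and deviations of set 1 from the group mean correlated at -0.22 to 0.60 between treatments (median -0.14), over 0.1 in 4 of 15 pairs. With the replicate block 1 keratin gene (Krt19) was called for acetate against vehicle, where 3888 of all genes were called higher in place of 0, and 3 for SB204990 added to etomoxir, where 11273 were called lower in place of 8753. It changed no other call of a keratin gene. Of 575 fold changes under all alternatives, those given above included, 470 kept their direction and side of the threshold, 50 lost and 9 gained a call, and 46 changed sign.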
